A study of Mus musculus with 10 samples.

Results

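Genes of the primary cilium and of polycystic disease were followed in RNA-seq of 10 libraries of cells sorted from mouse liver. The set was defined by gene symbol, with earlier results of these data known, and held 48 protein-coding genes of the 29972 genes in the tables. It took the numbered Ift, Bbs, Nphp and Tctn genes and a fixed list of transition zone, kinesin, basal body and cyst genes. Of the 48 genes, 46 passed a filter of at least 1 TPM in at least 3 libraries, and Bbs10 and Kif7 did not. TPM is an abundance per transcript length scaled to a fixed total in each library. Hepatocyte-derived peripheral cholangiocytes (HpC, n = 4) and hepatocytes (H, n = 3) came from mice of genotype Alb-Cre+/-;Rbpjf/f;Hnf6f/f. In these mice Cre is driven by the albumin promoter and removes parts of Rbpj, through which Notch signals reach DNA, and of Hnf6, a transcription factor of bile duct development. Peripheral cholangiocytes (pC, n = 3) came from Rbpjf/f;Hnf6f/f mice without Cre, so every group carried both floxed alleles, and cell origin and Cre cannot be told apart between HpC and pC. All mice were of a mixed C57BL/6, FVB and CD1 background, without a further treatment in the labels. Ages in the labels were P124, P151, P144 and P139 for HpC, P151, P119 and P142 for pC, and P134, P139 and P139 for H. Both cholangiocyte groups were sorted from nonparenchymal cells after collagenase, accutase and trypsin, and hepatocytes after perfusion with collagenase, so that cell type and digestion cannot be told apart against H. Between pC and H, Cre differs as well and cannot be told apart from either. The labels do not state that H2, H3 and HpC4, which share a genotype and an age, came from separate animals. P-values may there measure only technical spread, and HpC4 may be paired with H2 or H3.

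The primary cilium is a single antenna of microtubules that grows from a basal body at the cell surface. Intraflagellar transport (IFT) moves cargo along it: kinesin-2 motors carry IFT-B trains to the tip, dynein-2 carries IFT-A trains back, and the BBSome, a complex of Bardet-Biedl syndrome proteins, couples membrane proteins to the trains. The transition zone at its base is a gate built of Meckel, Joubert and nephronophthisis proteins. In liver, cholangiocytes carry a primary cilium that projects into the duct lumen and senses bile flow, whereas hepatocytes lack one. Loss of polycystins or of fibrocystin, proteins of this cilium, gives cysts of bile ducts and of the kidney.

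Many cilium genes carry an X-box in their promoter, the site of RFX transcription factors. The pattern searched, on both strands, was GT and CC with 2 free bases between them, then 3 free bases, G, 2 free bases and AC. Promoters from RefSeq (build GRCm38.p6), running from 250 bases before to 50 bases after the start, were in hand for 42 of the 48 genes. The X-box pattern stood in 11 of these 42 genes (26.2%), against 5.26% of all 27025 genes in the promoter table. The sequences below are shown since they come from genes on both sides of the comparison with hepatocytes: Ift57, Tmem231, Bbs1, Bbs4 and Tctn1 were higher in both cholangiocyte groups, while Mks1 and B9d2 passed the test in neither. Capitals mark the match, and each line reads along the gene's own strand.
Ift57: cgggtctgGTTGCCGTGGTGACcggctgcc
Tmem231: cgccgtcgGTTGCCGTGGAGACtcggcgct
Bbs1: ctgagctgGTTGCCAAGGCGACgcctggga
Bbs4: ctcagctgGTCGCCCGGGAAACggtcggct
Tctn1: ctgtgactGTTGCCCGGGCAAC
Mks1: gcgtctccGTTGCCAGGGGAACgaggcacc
B9d2: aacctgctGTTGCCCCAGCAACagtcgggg
These windows lie at chr16:49699199-49699228 on the plus strand for Ift57 and chr8:111933781-111933810 on the minus strand for Tmem231. The Bbs1 window lies at chr19:4906605-4906634, that of Bbs4 at chr9:59353464-59353493 and that of Tctn1 at chr5:122264411-122264432, all on the minus strand. Mks1 has its window at chr11:87853183-87853212 and B9d2 at chr7:25680788-25680817, both on the plus strand.

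The number of reads behind the values is unknown, so no counting error could be given. Genes at 1 TPM or more numbered 12495 to 14406 in HpC libraries, 13894 to 14489 in pC and 10232 to 10687 in H. TPM was rescaled between libraries to a common centre, and the results are called scaled TPM here. All 9 cholangiocyte markers examined, among them Krt7, Krt19, Epcam, Sox9 and Spp1, were higher in HpC and in pC than in H, and their summed level ran from 1703 to 2589 scaled TPM in HpC, 5186 to 5398 in pC and 19.0 to 27.4 in H. Hepatocyte markers, 8 of 8, were lower in both cholangiocyte groups than in H. Pancreatic enzyme markers took 15.2% of the deposited TPM of HpC1, and squamous epithelial markers 4.44% of that of HpC2.

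Most of the set was higher in both kinds of cholangiocyte than in hepatocytes. Against H, 34 of 46 tested genes rose and 2 fell in HpC, where 30.7% of all 14765 tested genes rose and 29.2% fell (limma, Benjamini-Hochberg adjusted over all tested genes at 5%). In pC 34 rose and 3 fell, against 31.1% and 28.6% of all genes. The median difference of the 46 genes was 1.05 on the log2(scaled TPM + 1) scale in HpC and 1.35 in pC, beside 0.08 and 0.11 over all tested genes. These comparisons share the 3 H libraries and are given side by side for that reason. Ift140 and Ift80 passed as higher in HpC alone and Ift172 and Tmem67 as higher in pC alone. Ift46 passed as lower in pC alone, and 7 genes, among them Bbs7, Ift27, Invs and Mks1, passed in neither. For the genes that passed in a single group, the difference between HpC and pC was tested separately and did not pass for any. Without HpC1 and HpC2 36 genes were higher than H and 2 lower in HpC. The filter bears on these counts: 12 of the 46 genes had no H library at 1 deposited TPM and so entered through cholangiocyte libraries alone. In sorted bulk samples, fewer ciliated cells and less RNA per cell cannot be told apart.

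**Figure D1:**
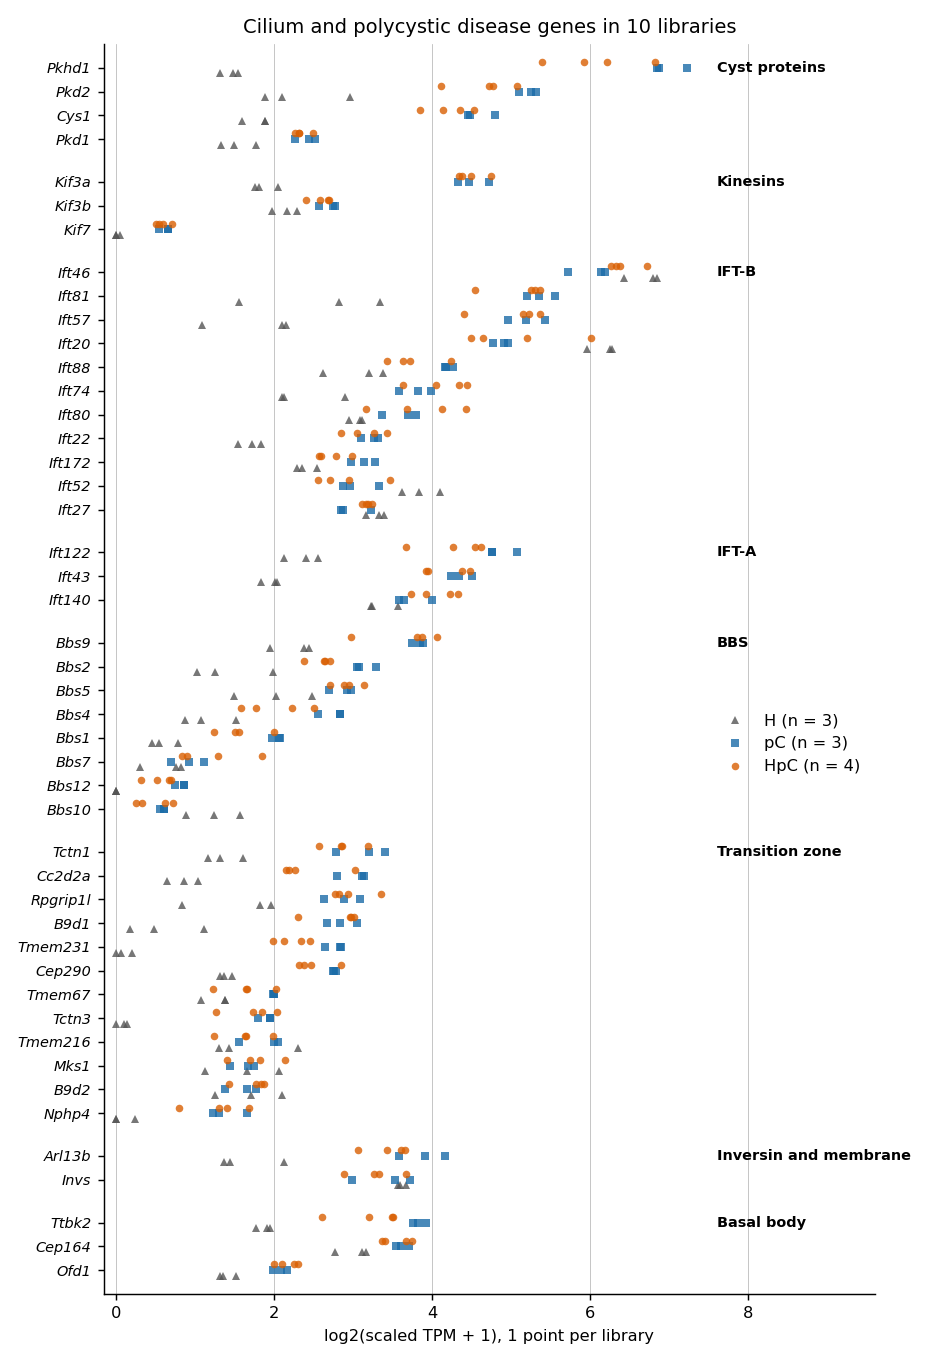
Level in each library of 46 of the 48 genes, with Bbs10 and Kif7 included, as log2(scaled TPM + 1) on the x axis, with genes grouped by role. Orange circles are the 4 HpC, blue squares the 3 pC and grey triangles the 3 H libraries; Pkhd1 runs from 1.50 to 1.92 scaled TPM in H and from 114 to 149 in pC, while for Ift52 every H library lies to the right of every cholangiocyte library.

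Grouped by role, the 4 cyst genes had the largest median difference from H on the log2 scale, 2.39 in HpC and 2.84 in pC. They ranged from 0.81 to 4.64 in HpC and from 0.88 to 5.53 in pC, with Pkd1 lowest and Pkhd1 highest. Pkhd1 (ENSMUSG00000043760, mm10 chromosome 1, 20057779 to 20618064, minus strand) encodes fibrocystin, the protein altered in autosomal recessive polycystic disease. Its level in HpC1 to HpC4 was 59.4, 41.0, 73.5 and 112 scaled TPM, in pC1 to pC3 114, 116 and 149, and in H1 to H3 1.50, 1.80 and 1.92. Every cholangiocyte library lay far above every H library, and every HpC library lay below every pC library. Its mean in pC was 72.7 times and its mean in HpC 41.1 times that in H, and on the log2 scale Pkhd1 was 5.53 ± 0.30 (SE) higher in pC (limma adjusted p = 2.68e-07) and 4.64 ± 0.28 higher in HpC (adjusted p = 4.88e-07). By ratio of means Tmem231 stood above Pkhd1, at 90.5 times H in pC and 57.7 times in HpC, from an H mean of 0.06. Pkhd1 ranked 1 by mean level among the 48 genes in pC, 2 in HpC and 32 in H.

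Pkd2 (ENSMUSG00000034462, chromosome 5, 104459450 to 104505819, plus strand) encodes polycystin-2, a cation channel of the cilium. It stood at 25.3, 16.4, 26.3 and 32.6 scaled TPM in the HpC libraries, at 33.3, 37.0 and 38.7 in pC and at 6.83, 2.71 and 3.28 in H. No HpC library reached the lowest pC library, and none fell to the level of H. Pkd2 was 2.90 ± 0.30 higher in pC than in H (limma adjusted p = 1.73e-05) and 2.35 ± 0.28 higher in HpC (adjusted p = 4.68e-05). Its partner Pkd1 (ENSMUSG00000032855, chromosome 17, 24549834 to 24596508, plus strand), polycystin-1, was lower and moved less. Pkd1 stood at 3.80, 3.98, 3.97 and 4.65 in HpC, at 3.80, 4.43 and 4.74 in pC and at 1.51, 1.83 and 2.42 in H. It was 0.88 ± 0.17 higher in pC than in H (limma adjusted p = 0.0012) and 0.81 ± 0.16 higher in HpC (adjusted p = 0.0012). By mean level per transcript length, Pkd2 exceeded Pkd1 in every group, at 25.1 against 4.10 in HpC, 36.3 against 4.32 in pC and 4.27 against 1.92 in H.

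Cys1 (ENSMUSG00000062563, chromosome 12, 24665833 to 24681813, minus strand) encodes cystin, a membrane-attached cilium protein whose loss causes the cpk form of mouse polycystic kidney disease. Its scaled TPM was 16.5, 13.4, 19.5 and 22.1 in HpC, 20.9, 21.3 and 26.8 in pC and 2.71, 2.01 and 2.70 in H. HpC and pC overlapped, and both stood well above H. The log2 differences of Cys1 from H were 2.43 ± 0.19 in HpC (limma adjusted p = 2.12e-06) and 2.78 ± 0.20 in pC (adjusted p = 1.36e-06).

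**Figure D2:**
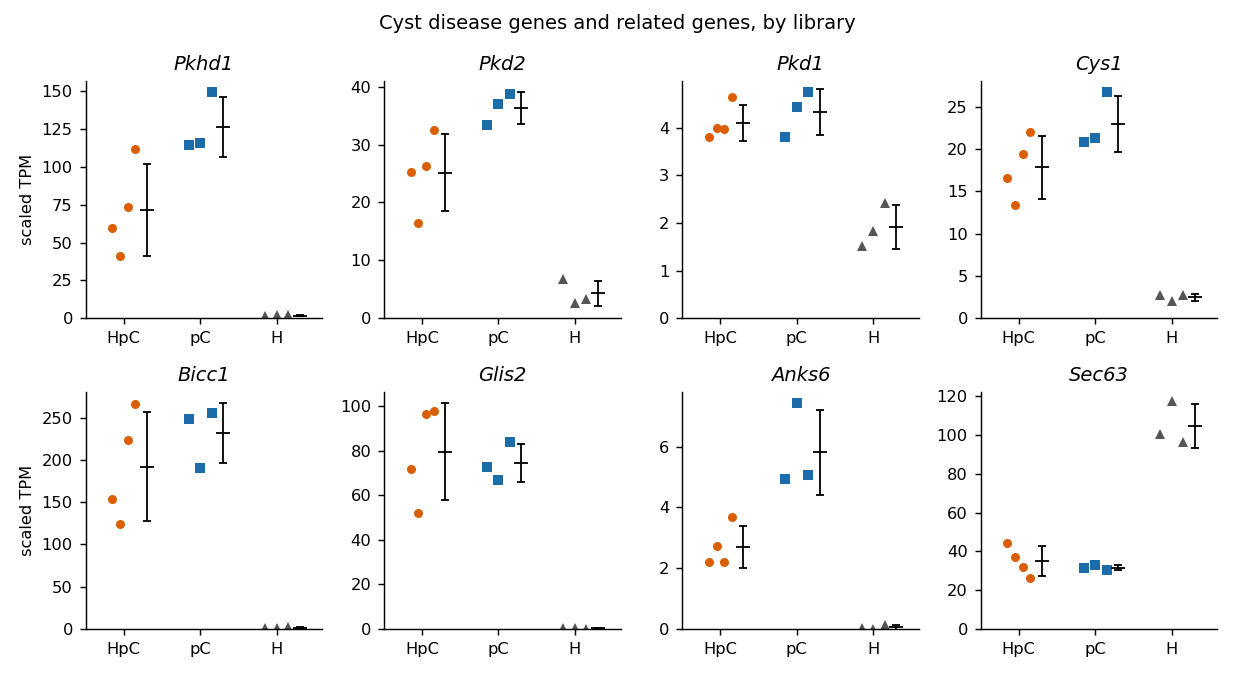
Scaled TPM (y axes, from 0, each panel with its own range) of Pkhd1, Pkd2, Pkd1 and Cys1 and of the related genes Bicc1, Glis2, Anks6 and Sec63 in each library of HpC, pC and H. Points are libraries and bars the mean with 1 SD; Pkhd1, Pkd2 and Anks6 have every HpC library below every pC library, and Sec63 is highest in H.

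Among the motors, Kif3a (ENSMUSG00000018395, chromosome 11, 53567379 to 53601967, plus strand), the motor subunit of kinesin-2 whose loss prevents cilium assembly, stood at 19.9, 19.3, 21.5 and 25.9 scaled TPM in HpC, 25.3, 21.1 and 19.1 in pC and 3.15, 2.40 and 2.50 in H. The cholangiocyte groups covered the same range. Kif3a was 2.62 ± 0.16 higher in HpC and 2.63 ± 0.17 higher in pC than in H (limma adjusted p = 4.57e-07 and 6.90e-07). Its partner subunit Kif3b rose less, with means of 5.07 ± 0.56 (SD, n = 4), 5.49 ± 0.50 (n = 3) and 3.44 ± 0.48 (n = 3) scaled TPM in HpC, pC and H. The log2 differences of Kif3b from H were 0.45 in HpC (limma adjusted p = 0.0223) and 0.55 in pC (adjusted p = 0.0119). The HpC call for Kif3b was lost without H1 (adjusted p = 0.0969), without H3 (0.0577) and without HpC3 (0.0534), and the pC call without H1 (0.0527). Kif7, a kinesin of Hedgehog signalling at the cilium tip, failed the filter and reached 1 deposited TPM in 1 library. It averaged 0.51 scaled TPM in HpC and 0.54 in pC, and was listed at 0 in H2 and H3 and at 0.04 in H1.

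The IFT-B genes ranged from far above the hepatocyte level to below it. In HpC 6 of 11 rose and 2 fell against H, and in pC 6 rose and 3 fell. Over all tested genes 30.7% rose and 29.2% fell in HpC, and 31.1% and 28.6% in pC. Falls in IFT-B thus did not exceed the share of all genes. Ift57 (ENSMUSG00000032965, chromosome 16, 49699233 to 49765126, plus strand), a peripheral IFT-B subunit, stood at 34.4, 20.2, 36.4 and 40.3 scaled TPM in HpC, 42.2, 30.2 and 35.6 in pC and 3.29, 3.43 and 1.14 in H. Only HpC2 lay below the pC range. Ift57 was 3.25 ± 0.30 higher in HpC and 3.41 ± 0.33 higher in pC than in H (limma adjusted p = 7.86e-06 and 9.34e-06).

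Ift81, which with Ift74 binds tubulin as train cargo, stood at 38.4, 22.3, 37.1 and 40.3 scaled TPM in HpC, 35.7, 46.2 and 39.8 in pC and 6.09, 9.12 and 1.94 in H. Again HpC2 was the low library of its group. Its log2 difference from H was 2.54 ± 0.38 in HpC and 2.80 ± 0.40 in pC (limma adjusted p = 2.04e-04 and 1.74e-04). Ift74 itself averaged 16.8 ± 4.15, 13.0 ± 1.90 and 4.37 ± 1.82 in HpC, pC and H and was higher than H by 1.74 and 1.42 (limma adjusted p = 1.84e-04 and 0.00117). Ift22, a small GTPase that binds the Ift74 and Ift81 pair, was higher by 1.45 and 1.53.

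Ift88, the subunit altered in the Oak Ridge polycystic kidney mouse, had scaled TPM of 11.4, 9.81, 12.1 and 17.9 in HpC, 18.3, 17.0 and 16.9 in pC and 8.23, 5.15 and 9.44 in H. HpC4 stood in the pC range and the other HpC libraries between pC and H. Ift88 was 0.68 ± 0.23 higher in HpC than in H (limma adjusted p = 0.0249) and 1.13 ± 0.24 higher in pC (adjusted p = 0.00254). The HpC call of Ift88 was lost without H2 (adjusted p = 0.12) and without HpC4 (0.0519). Ift172, the large peripheral subunit that turns trains around at the tip, was 0.73 higher in pC (limma adjusted p = 0.00358), and in HpC its difference of 0.34 did not pass (adjusted p = 0.088). Ift80 was 0.80 higher in HpC (limma adjusted p = 0.0262), a call lost without any 1 of HpC1, HpC3, H1, H2 or H3 (adjusted p from 0.0536 to 0.0825) and on protein-coding transcripts alone (0.96, adjusted p = 0.0859).

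Ift20, Ift46 and Ift52 went the other way. Ift20 (ENSMUSG00000001105, chromosome 11, 78536361 to 78541737, plus strand), the IFT subunit that also sits at the Golgi, stood at 63.7, 35.7, 24.0 and 21.5 scaled TPM in HpC, 30.2, 26.4 and 29.1 in pC and 76.4, 75.0 and 61.2 in H. HpC1 lay within the H range and the other cholangiocyte libraries below it. Ift20 was 1.07 ± 0.32 lower in HpC and 1.28 ± 0.34 lower in pC (limma adjusted p = 0.0138 and 0.00815).

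Ift52 (ENSMUSG00000017858, chromosome 2, 163017354 to 163046141, plus strand), a core subunit that holds IFT-B together, had 10.1, 6.74, 5.53 and 4.89 scaled TPM in HpC, 9.04, 6.33 and 6.76 in pC and 11.3, 13.3 and 16.2 in H. Every cholangiocyte library lay below every H library. The differences of Ift52 from H were -0.93 ± 0.23 in HpC and -0.80 ± 0.25 in pC (limma adjusted p = 0.00612 and 0.0189), and the pC call was lost without H3 (0.0666), pC2 (0.0664) or pC3 (0.0571).

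Ift46 (ENSMUSG00000002031, chromosome 9, 44767908 to 44793447, plus strand), which binds the Ift52 core, had the highest mean of the set in HpC and in H. It stood at 105, 79.3, 75.8 and 82.1 in HpC, 69.6, 51.9 and 71.8 in pC and 110 (109.7), 114 and 85.5 in H. Ift46 was 0.67 ± 0.19 lower in pC than in H (limma adjusted p = 0.0122, or 0.058 without pC2), and its difference of -0.27 in HpC did not pass (adjusted p = 0.225). These 3 directions depend on the scaling: on TPM as deposited the median over all genes rose to 0.87 in HpC and 1.20 in pC against H, and Ift20, Ift46 and Ift52 turned positive, though below that median by 0.84, 0.02 and 0.78 in HpC and by 0.95, 0.33 and 0.59 in pC. Ift27, a GTPase that serves BBSome exit, was near the H level, with means of 8.04 ± 0.33, 6.96 ± 1.26 and 8.84 ± 0.82 scaled TPM in HpC, pC and H.

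Of the IFT-A genes, Ift122 and Ift43 were well above H in both groups. Ift122, a core subunit, stood at 22.4, 11.8, 18.2 and 23.5 scaled TPM in HpC, 26.0, 32.6 and 26.1 in pC and 3.37, 4.31 and 4.90 in H. The 3 groups did not overlap. Ift122 was 1.91 ± 0.23 higher in HpC and 2.50 ± 0.25 higher in pC (limma adjusted p = 5.17e-05 and 1.27e-05). Ift43 averaged 17.4 ± 3.67, 19.6 ± 1.92 and 2.91 ± 0.29 and was 2.22 and 2.40 higher than H (limma adjusted p = 2.34e-06 and 2.23e-06). Ift140, mutated in human skeletal ciliopathies, averaged 15.8 ± 3.17, 12.5 ± 2.16 and 9.22 ± 1.44 and was 0.71 higher in HpC (limma adjusted p = 0.00842) while 0.40 in pC did not pass (adjusted p = 0.114).

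The BBSome subunits Bbs1, Bbs2, Bbs4, Bbs5 and Bbs9 were higher than H in both groups, by 0.87 to 1.42 in HpC and 0.86 to 1.71 in pC on the log2 scale. Bbs4, a peripheral subunit, had 2.01, 2.41, 3.70 and 4.68 scaled TPM in HpC, 6.15, 6.14 and 4.90 in pC and 1.12, 1.86 and 0.83 in H. No HpC library reached the pC libraries. Bbs4 was 0.87 ± 0.25 higher than H in HpC (limma adjusted p = 0.012, or 0.0549 without H3) and 1.59 ± 0.27 higher in pC (adjusted p = 4.96e-04). Bbs9, the most abundant Bbs gene by mean level, averaged 12.3 ± 3.79, 13.2 ± 0.68 and 3.84 ± 0.85 scaled TPM in HpC, pC and H. Bbs7, whose protein is a core BBSome subunit, averaged 1.42, 0.89 and 0.57 and passed in neither comparison. The chaperonin-like genes Bbs10 and Bbs12, which help the complex assemble, were the lowest of the group in HpC and pC. Bbs12 entered the test through the 3 pC libraries alone, at 0.68, 0.81 and 0.82 scaled TPM, and was listed at 0 in every H library. Bbs10 reached 1 deposited TPM in 1 library, an H library, and averaged 0.41, 0.50 and 1.40 scaled TPM in HpC, pC and H.

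The transition zone genes were mostly higher in cholangiocytes, 9 of 13 in HpC and 10 of 13 in pC, with none lower. Over all tested genes 30.7% were higher in HpC and 31.1% in pC. B9d1, Cc2d2a, Nphp4, Tctn3, Tmem231 and Tmem67 had no H library at 1 deposited TPM. They passed the filter through cholangiocyte libraries alone, so a lower call was hardly open to them. Tmem231 (ENSMUSG00000031951, chromosome 8, 111912011 to 111933881, minus strand), a membrane protein of the gate, had 2.98, 3.38, 4.51 and 4.08 scaled TPM in HpC, 6.14, 6.22 and 5.24 in pC and 0.15, 0 and 0.04 in H. The 3 groups did not overlap. Tmem231 was 2.14 ± 0.16 higher in HpC and 2.69 ± 0.17 higher in pC than in H (limma adjusted p = 1.79e-06 and 6.63e-07). B9d1, a soluble partner of the Meckel complex, averaged 6.16 ± 1.49, 6.28 ± 0.95 and 0.57 ± 0.53 and was higher by 2.22 and 2.26 (limma adjusted p = 3.56e-05 and 5.24e-05).

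Cc2d2a, which organises the gate, had 3.58, 3.80, 3.46 and 7.17 scaled TPM in HpC, 7.70, 7.84 and 5.98 in pC and 0.81, 1.06 and 0.57 in H. HpC4 alone of its group lay in the pC range. Its differences from H were 1.56 ± 0.23 in HpC and 2.17 ± 0.25 in pC (limma adjusted p = 2.11e-04 and 3.37e-05). Cep290, a linker between membrane and microtubules, averaged 4.74 ± 1.02, 5.80 ± 0.08 and 1.61 ± 0.15 and was higher by 1.12 and 1.38 (limma adjusted p = 1.54e-04 and 5.93e-05). Tctn1, Tctn3, Nphp4 and Rpgrip1l were also higher in both groups, by 1.22 to 1.64 in HpC and 1.32 to 1.82 in pC.

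Tmem67, encoding meckelin, a receptor-like protein mutated in human liver fibrosis with ciliopathy, had 2.13, 1.34, 2.17 and 3.07 scaled TPM in HpC, 2.96, 3.01 and 2.99 in pC and 1.12, 1.59 and 1.60 in H. HpC2 lay within the H range. Tmem67 was 0.72 ± 0.21 higher in pC (limma adjusted p = 0.013, or 0.0537 without H1), and its difference of 0.36 ± 0.19 in HpC did not pass (adjusted p = 0.133), though it did without HpC2 (0.57, adjusted p = 0.0134). Mks1, B9d2 and Tmem216, which also encode Meckel complex proteins, had means from 2.07 to 2.70 scaled TPM in every group and passed in neither comparison. Tctn2 matches the symbol pattern but is not typed as protein-coding in GENCODE M21 and was left out of the set. It had 3.85 to 5.99 scaled TPM in HpC, 4.62 to 6.95 in pC and 1.13 to 1.62 in H.

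At the ciliary membrane and the inversin compartment, Arl13b was higher in both groups, whereas Invs passed in neither. Arl13b, a small GTPase of the ciliary membrane, had 7.34, 9.75, 11.1 and 11.7 scaled TPM in HpC, 10.9, 16.9 and 14.0 in pC and 1.72, 1.57 and 3.36 in H. It was higher than H by 1.79 ± 0.24 in HpC and 2.24 ± 0.25 in pC (limma adjusted p = 9.51e-05 and 3.29e-05). Invs, which encodes inversin, a cyst gene of nephronophthisis, averaged 8.96 ± 2.19, 9.89 ± 2.68 and 11.2 ± 0.45 scaled TPM in HpC, pC and H. The 95% interval of its difference between pC and H was -0.72 to 0.32.

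All 3 basal body genes were higher in both cholangiocyte groups, where 30.7% of all tested genes were higher in HpC and 31.1% in pC. Ttbk2, a kinase that starts cilium growth, had 8.24, 5.10, 10.3 and 10.3 scaled TPM in HpC, 14.2, 12.6 and 13.1 in pC and 2.42, 2.87 and 2.77 in H. The 3 groups did not overlap, and Ttbk2 was higher than H by 1.32 ± 0.21 in HpC and 1.95 ± 0.23 in pC (limma adjusted p = 3.93e-04 and 4.19e-05). Cep164, which recruits Ttbk2 to the distal appendages, differed less from H, by 0.53 in HpC and 0.60 in pC (limma adjusted p = 0.014 and 0.0109), and both calls were lost without H3 (0.0727 and 0.0515). Ofd1, a centriole protein that limits centriole length, was higher by 0.77 and 0.69 (limma adjusted p = 0.00101 and 0.00312).

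**Figure D3:**
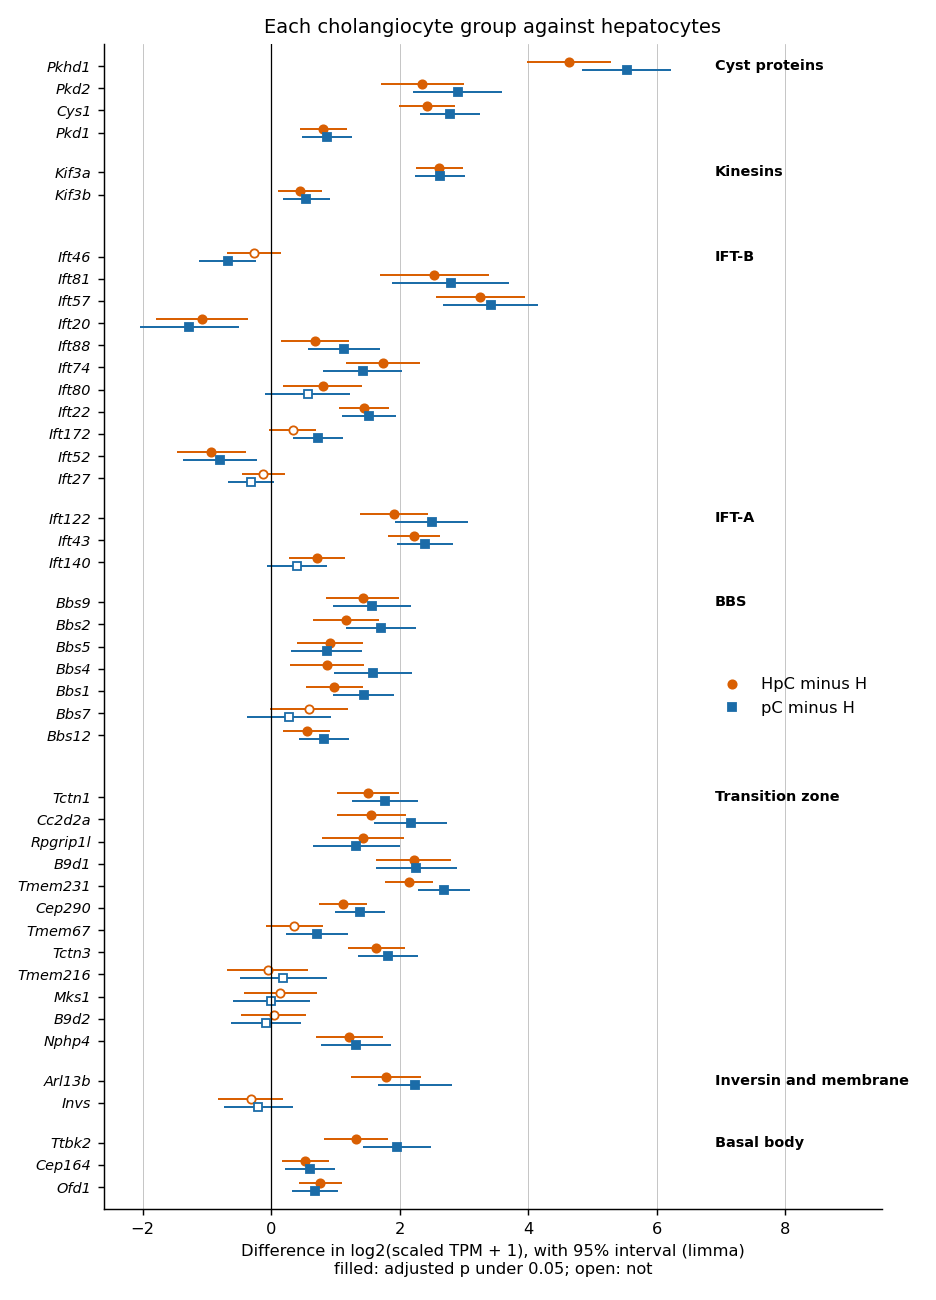
Difference from H of 44 of the 46 tested genes on the log2(scaled TPM + 1) scale (x axis), for HpC (orange circles) and pC (blue squares), with 95% intervals from limma; filled symbols have an adjusted p under 0.05. Pkhd1 lies farthest to the right at 4.64 and 5.53, and Ift20 farthest to the left at -1.07 and -1.28.

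The comparison of HpC with pC asks whether cholangiocytes that arose from hepatocytes express the set at the level of ordinary ones. None of the 46 genes passed the limma test between HpC and pC, where 4.54% of all tested genes did, 1.99% higher and 2.55% lower. At an unadjusted p under 0.05 there were 10 genes, 9 lower and 1 higher in HpC, beside 17.8% of all genes. The differences ran from -0.90 to 0.41 with a median of -0.16 against -0.01 over all genes, and 34 of 46 (73.9%) were below 0, against 51.2% of all genes. Every HpC library lay below every pC library in 8 genes, against 9.72% of all genes, and above in 1, Ift46, against 6.78%. The 8 genes were Pkhd1, Pkd2, Bbs2, Bbs4, Bbs12, Ift122, Tmem231 and Ttbk2. Of these, Bbs12 passed the filter through the 3 pC libraries alone, with no HpC library at 1 deposited TPM. Its separation was thus nearly set by the filter and carries no weight in this count.

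Pkhd1 had the largest difference, -0.90 ± 0.28 (SE) with a 95% interval of -1.53 to -0.26 (limma adjusted p = 0.121), and its mean in HpC was 56.5% of that in pC. Without HpC4, the HpC library nearest to pC, Pkhd1 passed at -1.14 (adjusted p = 0.0207), as did Cc2d2a at -0.81 (adjusted p = 0.0271). Without HpC1 and HpC2 the Pkhd1 difference was -0.43 (adjusted p = 0.378). Tmem231 had the smallest adjusted p of the set, at a difference of -0.54 ± 0.16 (95% interval -0.90 to -0.18, limma adjusted p = 0.0996). Bbs4 differed by -0.72 (interval -1.27 to -0.17), Ttbk2 by -0.63 (-1.11 to -0.15), Ift122 by -0.59 (-1.10 to -0.07), Pkd2 by -0.55 (-1.18 to 0.08) and Bbs2 by -0.55 (-1.05 to -0.05). For Kif3a the difference was -0.01 with an interval of -0.36 to 0.34, and for Pkd1 -0.06 with an interval of -0.41 to 0.29. A test that misses the threshold does not show equal levels, and the interval of Pkhd1 allows a fall of 1.53 on the log2 scale.

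**Figure D4:**
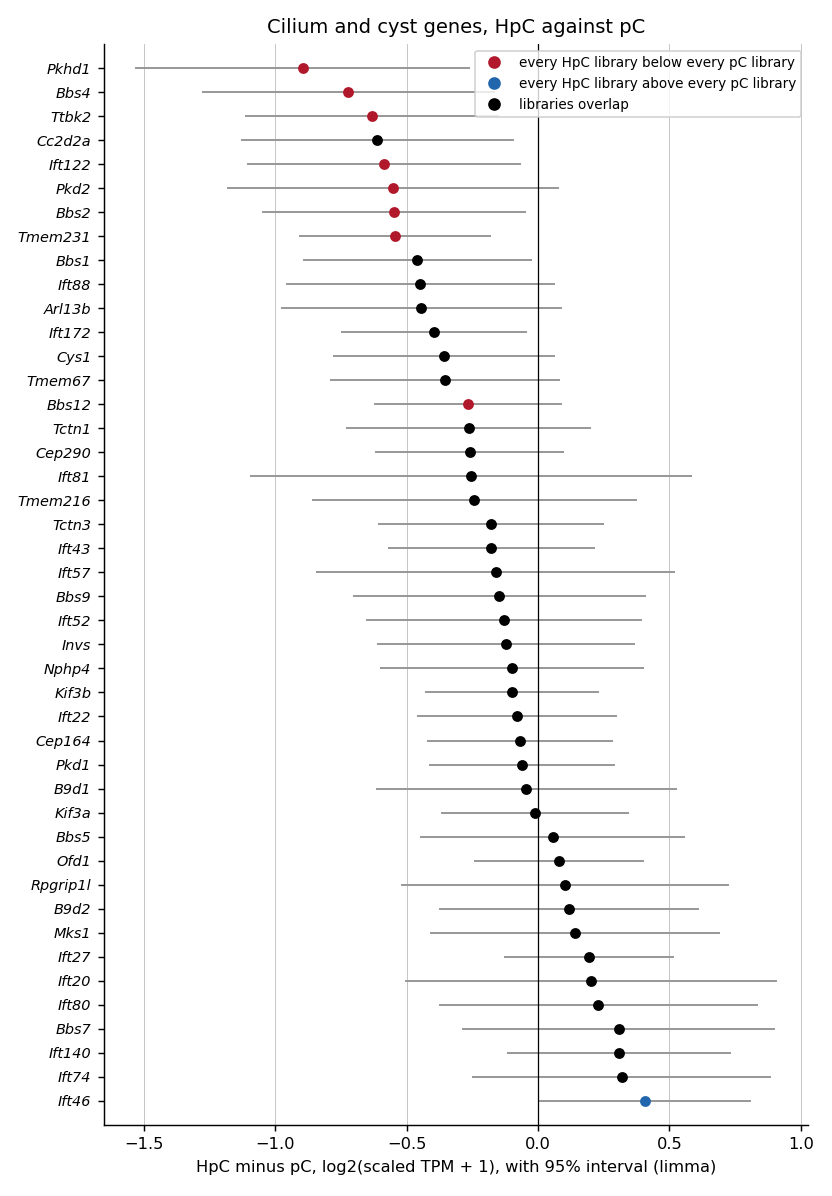
Difference HpC minus pC of 44 of the 46 tested genes on the log2(scaled TPM + 1) scale (x axis), with 95% intervals from limma, ordered by size. Red points are the 8 genes in which every HpC library lay below every pC library, the blue point is Ift46, in which every one lay above, and black points overlap. For Bbs12 this order was nearly set by the filter, which it passed through pC libraries alone. No gene had an adjusted p under 0.05.

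The HpC libraries differed from each other more than the pC or H libraries did. HpC2 was the lowest HpC library in 25 of 46 genes and the highest in 0, while it was lowest in 29.9% and highest in 31.6% of all tested genes. HpC4 was the highest in 32 of 46 genes, against 27.3% of all genes. The median of the 46 genes relative to the pC mean was -0.18 in HpC1, -0.43 in HpC2, -0.14 in HpC3 and 0.03 in HpC4 on the log2 scale, with all-gene medians from -0.05 to -0.01. The mean log2 level of the 46 genes had an SD of 0.17 among HpC libraries, 0.02 among pC and 0.01 among H. Leaving out HpC2 moved the median difference between HpC and pC from -0.16 to -0.08, and leaving out HpC1 and HpC2 moved it to -0.01. Beside these values stand the squamous markers at 4.44% of deposited TPM in HpC2 and the pancreatic markers at 15.2% in HpC1, with at most 0.155% in other libraries, and their part in the result was not tested. Hepatocyte markers (8 genes) summed to 2872 to 5516 scaled TPM in HpC, with HpC2 lowest, and 933 to 2517 in pC. Every HpC library thus lay above every pC library in this sum, though none of the 8 genes passed the limma test between the groups, and the part of these markers in the result was not tested. Of 6 mesothelial markers 3 were higher and 1 lower in HpC than in pC, and of 8 stellate and fibroblast markers 1 was higher, and their part was not tested either. The single cholangiocyte marker that passed was Spp1, osteopontin, at 953 ± 325 (SD, n = 4) scaled TPM in HpC and 4223 ± 178 (n = 3) in pC (limma adjusted p = 0.0015).

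**Figure D5:**
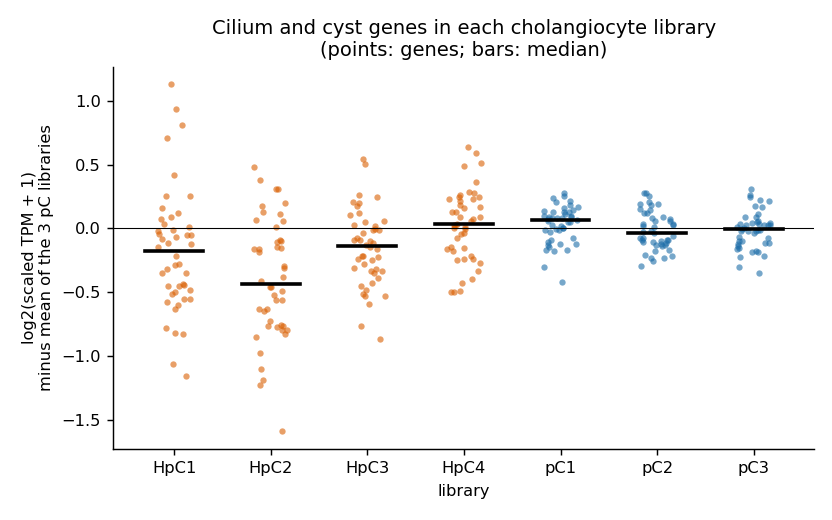
Level of each of the 46 tested genes in each HpC (orange) and pC (blue) library, as log2(scaled TPM + 1) minus the mean of the 3 pC libraries (y axis), with 1 point per gene and a bar at the median. The bar lies at -0.43 in HpC2 and at 0.03 in HpC4.

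Genes with and without the X-box pattern were both mostly higher in cholangiocytes than in hepatocytes, which was not tested further. Of the 11 genes with a match, 7 were higher than H in each cholangiocyte group and 4 (B9d2, Bbs7, Mks1 and Tmem216) passed in neither. Of 31 genes with a promoter and no match, 29 were tested and 23 were higher in each comparison. Over all tested genes 30.7% were higher in HpC and 31.1% in pC. Bbs1, Bbs4, Nphp4 and Tmem231, all with a match, had no H library at 1 deposited TPM. Neither had B9d1, Pkhd1 and Tctn3, among the genes without a match. All of these passed the filter through cholangiocyte libraries alone, so a lower call was hardly open to them. The median pC minus H difference was 1.44 with a match and 1.33 without. The 6-base core GTTGCC, which can lie inside an X-box match, stood in 18 of 42 genes (42.9%) and in 14.1% of all genes in the promoter table.

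Transcript shares set a limit on several values, since short single-end reads divide poorly between transcripts. For Cys1 the leading transcript is typed as subject to nonsense-mediated decay and held 51.4% to 67.7% of the gene's TPM in HpC and 60.0% to 73.3% in pC. Protein-coding transcripts of Cys1 averaged 24.4% of the gene's TPM in HpC against 17.3% in pC and 9.41% in H. For Ift88 the leading transcript has the same type, and coding transcripts averaged 23.5%, 25.9% and 7.02%. Bbs5 had the lowest coding share of the set in HpC, at 6.61% there, 13.3% in pC and 4.44% in H. It was led by a retained-intron transcript and did not pass the low-value filter on coding transcripts alone, and most of its level came from other transcripts. Ift80 was also led by a retained-intron transcript, with coding shares of 15.7%, 28.7% and 10.3%. For Pkhd1 the leading transcript, which is protein-coding, held 64.5%, 62.8% and 78.4%. On protein-coding transcripts alone Ift122 was lower in HpC than in pC (-0.71, limma adjusted p = 0.0354), and the HpC minus H difference of Ift140 went from 0.71 to -0.09 (adjusted p = 0.578). Exons of Ttbk2 overlap Cdan1 on the same strand over 29.9% of their length, and those of Tctn1 and Kif7 overlap genes on the opposite strand over 19.0% and 19.1%, so reads of these genes may be shared.

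Other genes of the cilium, taken from lists of known parts, were counted in the same fit. Over all tested genes, 30.7% were higher and 29.2% lower than H in HpC, and 31.1% and 28.6% in pC. Of 14 tested IFT and dynein-2 genes, 11 were higher and 0 lower than H in HpC, and 13 and 0 in pC. Dync2li1, the dynein-2 light intermediate chain, averaged 15.1 ± 3.43, 18.1 ± 2.77 and 0.24 ± 0.11 scaled TPM in HpC, pC and H. Of 15 further transition zone and nephronophthisis genes 10 and 12 were higher, led by Glis2, a nephronophthisis gene encoding a zinc finger factor, at 79.6 ± 21.9, 74.5 ± 8.60 and 0.21 ± 0.18. Of 14 centriole and appendage genes 7 and 9 were higher and Rab8a, a GTPase of ciliary membrane delivery, was lower in both, at 113 ± 32.3, 82.1 ± 7.66 and 244 ± 37.4. Of 8 Hedgehog genes 6 and 7 were higher, among them Tulp3, which brings receptors into the cilium, at 10.3, 15.9 and 1.09. Of 8 ciliary signalling genes 7 and 7 were higher, among them Trpv4, the osmosensitive channel, at 9.40 ± 3.40, 8.72 ± 2.13 and 0.05 ± 0.06, and Adcy6, a cyclase, at 13.5, 18.6 and 3.62. Of 7 further Bardet-Biedl genes 4 and 4 were higher, and Mkks, the third chaperonin-like gene, was lower in both, at 3.80, 3.59 and 11.5. The filter bears on these counts as well. Dync2li1, Glis2 and Trpv4, with such low H levels, were among genes that passed it through cholangiocyte libraries alone. A lower call was hardly open to such genes, which limits what the counts show.

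Other cystic disease genes were called in both directions. Of 12 genes known from polycystic liver or kidney disease, 2 were higher and 6 lower than H in each cholangiocyte group, to be read against the same shares of all genes. Among the higher ones was Bicc1, an RNA-binding protein whose loss gives cysts in mice, at 192 ± 64.5, 231 ± 35.8 and 1.24 ± 0.76 scaled TPM in HpC, pC and H. Among the lower ones were Sec63, an endoplasmic reticulum translocation protein mutated in polycystic liver disease, at 35.0 ± 7.62, 31.6 ± 1.45 and 105 ± 11.4, and Dnajb11, a chaperone of that compartment, at 31.9, 19.6 and 86.6. Of 7 polycystin and fibrocystin paralogues 1 passed the low-value filter, and it passed in no comparison. Of 7 tested RFX and cilium-programme factors 6 were higher and 1 lower than H in both groups. The lower one was Rfx4, at 5.98, 4.16 and 2.38 scaled TPM in H and from 0 to 0.10 in cholangiocyte libraries. Among the higher ones Rfx2 averaged 4.44, 3.21 and 0.26. At these levels Rfx2 passed the filter through cholangiocyte libraries alone and Rfx4 through H libraries alone. The opposite call was hardly open to either, which limits what the counts show.

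Anks6, an inversin compartment protein from the further nephronophthisis genes, differed between HpC and pC. It stood at 2.19, 2.73, 2.19 and 3.67 in HpC and 4.92, 7.43 and 5.08 in pC, and the groups did not overlap. Anks6 was 0.88 lower in HpC (limma adjusted p = 0.0319), a call kept only in the fit without HpC4 among those that left out 1 library, with adjusted p up to 0.153. It was also lost on TPM as deposited (adjusted p = 0.0557), on protein-coding transcripts (-0.68, adjusted p = 0.218), with a pseudocount of 0.1 (0.158), with no low-value filter (0.0693), with both groups fitted alone (0.0959) and without HpC1 and HpC2 (0.139).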

How the data were processed

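The authors deposited TPM per Ensembl transcript (85276 of them), 1 table for each library. Tools named in the submitters' processing notes are kallisto and DESeq, on build mm10, with no versions or roles. Reads were single-end from a low-input kit, per the labels, and whether strand was used is not given. TPM keeps no depth, so no count test was possible.

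Transcripts were joined to genes through GENCODE M21, which matched 81927 and left out 3349 that held 4.22% to 9.06% of TPM. TPM was summed per gene, and 14765 genes reaching 1 TPM in 3 or more libraries were kept. Scaled TPM is TPM divided by factors of 0.499 to 1.61 from a trimmed mean of log ratios (30% of ratios and 5% of levels trimmed). Group means of log2(scaled TPM + 1) were compared by limma 3.58.1 in R 4.3.3, in a single fit of 10 libraries with a trend in the prior variance, and adjusted by Benjamini-Hochberg over all tested genes at 5%. Differences on this scale understate changes of low genes. The fit was tested on simulated data. Tables and figures used Python 3.11.15, pandas 2.3.3 and matplotlib 3.10.9.

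The members, gene lists and tests were chosen with earlier results of these data known. Genes named always were Pkhd1, Pkd1, Pkd2, Cys1, Ift88, Kif3a, Arl13b, Tmem67, Invs, Cep290, Cep164, Ttbk2, Kif7 and Ofd1. Also named were members passing between HpC and pC, the 10 largest passing differences from H in each direction, the highest and lowest members of a group, members at the filter, and from related lists those passing between HpC and pC and up to 3 per list and direction against H. Most other members are named too, after their values were seen. A few genes are counted but not reported here by name or drawn by name. Alternatives changed the scaling, the genes or transcripts summed, the pseudocount (0.1), the filter, the libraries in the fit, their weights, the prior variance and the replicate block.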

Additional observations from a re-analysis of the deposited data

Results flagged for a closer look

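Among the 46 tested genes, 3 had a single HpC library standing apart from the other 3, with a gap to its nearest neighbour large against the group's whole range (Dixon's 95% critical value for 4 libraries). Chance alone flags about 1 in 20 groups. B9d1 in HpC1 stood at 3.93 scaled TPM, where the other HpC libraries had 6.77 to 7.10. Cc2d2a in HpC4 stood at 7.17, where the others had 3.46 to 3.80. Ift81 in HpC2 stood at 22.3, where the others had 37.1 to 40.3.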

How the results depend on the processing

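Over all alternatives and left-out libraries, 30 to 40 genes were higher than H in HpC and 32 to 44 in pC. The genes lower than H became 0 in both groups on TPM as deposited, and leaving out 1 library gave 1 to 4 in pC. Between HpC and pC the fit as reported called 0 genes lower, protein-coding transcripts alone called 1 (Ift122), array weights 4 (Cc2d2a, Ift122, Ift172 and Pkhd1), and leaving out 1 library 0 to 2. Genes with every HpC library below every pC library numbered 8, and 8 to 16 with 1 library left out, the 16 without HpC4. The 8 include Bbs12, which passed the filter through pC libraries alone. The share of all genes, 9.72%, was taken with every library in place. With fewer libraries full separation comes more easily for any gene, so the left-out counts have no share to be read against. All-gene calls between HpC and pC went from 671 to 1797 with array weights, 393 with both groups fitted alone, and 271 to 794 with 1 library left out. Equal replicate numbers gave no sign of pairing (same-number correlations of deviations from -0.05 to 0.08, others from -0.18 to 0.17). With so few libraries in each group, these correlations cannot settle whether libraries were paired. The fit with the replicate block called 2 genes lower in HpC than in pC, Pkhd1 (-1.14, adjusted p = 0.0266) and Cc2d2a (-0.82, adjusted p = 0.0432), as did the fit without HpC4, which is alone in its block.

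Among the genes named in a comparison and followed through every alternative there, these directions turned, with the cause not tested. For HpC minus pC they were Ift140 (-0.084), Ift46 (-0.017) and Ofd1 (-0.25) on TPM as deposited, where the all-gene median was -0.36. Ift140, Ift46 and Ofd1 lay above that median by 0.28, 0.35 and 0.12. Under other settings the turned directions were Kif3a with median-of-ratios scaling (0.023) and with both groups alone (0.022), and Cys1 (0.10) and Ift140 (-0.33) on protein-coding transcripts. Without HpC1 and HpC2 they were Invs (0.091), Kif3a (0.15) and Pkd1 (0.028). With 1 library left out Kif3a ran from -0.097 to 0.092 and Invs from -0.34 to 0.038. For HpC minus H they were Ift20 (0.032), Ift27 (0.87), Ift46 (0.85), Ift52 (0.086) and Invs (0.70) on TPM as deposited, where the all-gene median was 0.87. On protein-coding transcripts Ift140 (-0.092) turned, while Ift27 ran from -0.20 to 0.0053 with 1 library left out. For pC minus H they were Ift20 (0.25), Ift27 (1.06), Ift46 (0.87), Ift52 (0.61) and Invs (1.21) on TPM as deposited, where the all-gene median was 1.20, and Invs ran from -0.34 to 0.020 with 1 library left out. Other genes of the set were compared on TPM as deposited too. There B9d2 (-0.17), Bbs5 (-0.32), Ift20 (-0.22), Ift27 (-0.18), Ift74 (-0.077), Ift80 (-0.17), Mks1 (-0.15) and Rpgrip1l (-0.26) turned for HpC minus pC, Tmem216 (0.66) for HpC minus H and B9d2 (0.93) for pC minus H. Those turned for HpC minus pC all lay above the all-gene median of -0.36, by 0.05 (Bbs5) to 0.29 (Ift74). Tmem216 and B9d2 lay below their all-gene medians against H, by 0.21 and 0.27. Depth is unknown, so low values carry an unknown counting error.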

Other observations

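Genes of motile cilia, which cholangiocytes are not known to carry, were present at low levels. Of 7 tested genes of the motile axoneme 6 were higher than H in HpC and 5 in pC, where 30.7% and 31.1% of all tested genes were, among them Rsph1, a radial spoke protein, at 7.66 ± 2.11 (SD, n = 4), 5.83 ± 3.01 (n = 3) and 0.26 ± 0.34 (n = 3) scaled TPM in HpC, pC and H. Spag6l, a central apparatus protein, averaged 2.92, 1.99 and 0.06, and Dnah5, an outer arm dynein, 1.16, 1.63 and 0.04. With H levels this low, Rsph1, Spag6l and Dnah5 passed the filter through cholangiocyte libraries alone. A lower call was hardly open to them, which limits what the counts show. Foxj1, the factor that drives motile cilium formation, stood at 21.7, 14.7, 32.3 and 29.5 in HpC, at 13.5, 12.3 and 14.9 in pC, and at 0, 0 and 0.05 in H. Its HpC and pC values overlapped, and its difference of 0.76 between them did not pass (limma adjusted p = 0.12).

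Of 6 tested genes of cilium disassembly, 2 were higher and 1 lower than H in each cholangiocyte group, where 30.7% of all tested genes were higher in HpC and 31.1% in pC, so the higher share is near that of all genes. Nedd9, a scaffold that activates the disassembly kinase Aurora A, averaged 33.4 ± 11.0, 21.4 ± 2.76 and 0.70 ± 0.49 scaled TPM in HpC, pC and H. At that H level Nedd9 passed the filter through cholangiocyte libraries alone, so a lower call was hardly open to it. Hdac6, the tubulin deacetylase, was lower, at 7.63 ± 0.61, 7.37 ± 1.24 and 10.9 ± 1.50. None of the genes of either list passed the limma test between HpC and pC.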
